A study of Mus musculus with 8 samples.

Results

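The genes described are those of the cytosolic ribosome, taken by name: every probe whose paired symbol is Rpl or Rps with a number and at most 1 letter a, l or x, or is Rplp0, Rplp1, Rplp2 or Rpsa, without the Rps6k kinases. The rule found 96 of 41174 gene probes, which stand for 54 of 18322 named genes, 34 of the large subunit and 20 of the small subunit. The rule uses names alone. Rplp1, Rps27, Rpl10l and Rps4l had no probe under their symbol and were not analysed here. Each gene is represented below by its brightest probe unless its other probes are named.

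The values come from 8 two-colour arrays. Pools of cells given siFoxO6-3 (4 pools) or siFoxO6-2 (4 pools) were each read on an array of their own against 1 pool that received Scrambled, a non-targeting siRNA. All embryos were C57/BL6 and also received a GFP expression vector; they were electroporated in utero at E14.5 in the design text, where the treatment protocol has E14, and their cortices were dissociated and sorted at E16.5 (embryonic days). FoxO6 is a forkhead transcription factor that lies downstream of insulin and growth factor signalling. The siRNAs differ in sequence, given here as the labels write them because several results below are set side by side by siRNA:
siFoxO6-3: nnccaucagccuuaugacgcu
siFoxO6-2: nnacaugccagugacgacuac
The pools held several cortices and the labels call them independent. A log2 ratio is siRNA over scrambled, so a value above 0 is higher with the siRNA. Because there was 1 scrambled pool, p-values against it measure only how the siRNA pools vary, not how the reference varies. Sorted pools were measured as bulk RNA, so fewer cells of a type and less RNA per cell cannot be told apart.

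A ribosome joins a large subunit, which forms peptide bonds and holds the exit tunnel, to a small subunit, which reads the mRNA. Each of their proteins is, with few exceptions, needed once per ribosome, and unassembled copies are usually degraded. Their mRNAs are among the most abundant of growing cells, and most begin with a pyrimidine tract (5′ TOP) through which mTORC1 controls their translation rather than their level. In the developing cortex this output is known to be regulated between progenitors and neurons.

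Over the whole series, median siRNA-channel signals ran from 58.0 (siFoxO6-3 replicate 4) and 74.0 (siFoxO6-2 replicate 3) to 123, and these 2 arrays also had the lowest array weights, 0.677 and 0.353, against 0.86 to 2.75 on the others. The target Foxo6 was lower on 8 of 8 arrays, with fitted log2 ratios of -1.65 with siFoxO6-3 and -0.95 with siFoxO6-2. All 11 measured projection neuron markers and all 11 cortical progenitor markers were above the empty spots in both channels on all 8 arrays. In each of these lists 1 marker was called higher and 2 lower with both siRNAs together (limma adjusted p under 0.05). Over all features 6.72% were called higher and 6.59% lower. Of 9 oligodendrocyte lineage and astrocyte markers 3 were called higher and 1 lower. Of 12 endothelial and mural markers 1 was called higher, of 10 interneuron markers 1 lower, and of 6 erythroid markers 0. Of 12 microglia and macrophage markers, 5 were called higher and 0 lower with both siRNAs together, 9 were above the empty spots in both channels on all 8 arrays, and 0 lay at the level of the empty spots in the reference channel on every array. The median of these 12 ran from 0.06 to 0.12 over the siFoxO6-3 arrays and from 0.10 to 0.37 over the siFoxO6-2 arrays; their part in the ribosomal protein values was not tested.

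The first question was whether ribosomal protein mRNAs stood above or below the scrambled pool, taking both siRNAs as 1 mean. A gene was called when its limma p, adjusted by Benjamini-Hochberg over all 25310 features (named genes and unnamed probes), was under 0.05. Of the 54 members, 9 were called higher, where 6.72% of all features were, and 3 lower, where 6.59% of all features were. Together these 12 make 22.2% of the members, beside 13.3% of all features and 26.2% of the brightest 10% of features, to which 38 of the 54 members belong. The fitted log2 ratios ran from -0.56 (Rplp0) to 0.77 (Rpl4) with a median of 0.07, against a median of 0.00 for all features. Of the members 30 lay above 0 with loess, which centres spots of each brightness near 0, and 49 did with median centring. Of all 25310 features 12939 lay above 0 with loess and 15196 with median centring. Of the 2531 brightest 1141 and 2476 did. The count of 12 fell to 4 without siFoxO6-3 replicate 2 or siFoxO6-2 replicate 1, and it was 5 without siFoxO6-3 replicate 1 or siFoxO6-2 replicate 4, 6 without siFoxO6-2 replicate 2 and 7 without siFoxO6-3 replicate 3. Shares of all features called without single arrays are not given here. These counts therefore do not tell a change in the members from a general change in calling. Next a reference was assumed to vary as much as the siRNA pools. Limma then called 0 of the 54 members and 0 of all 25310 features. An unadjusted p under 0.05 was held by 1 of the 54 members and by 635 of the 25310 features.

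**Figure D1:**
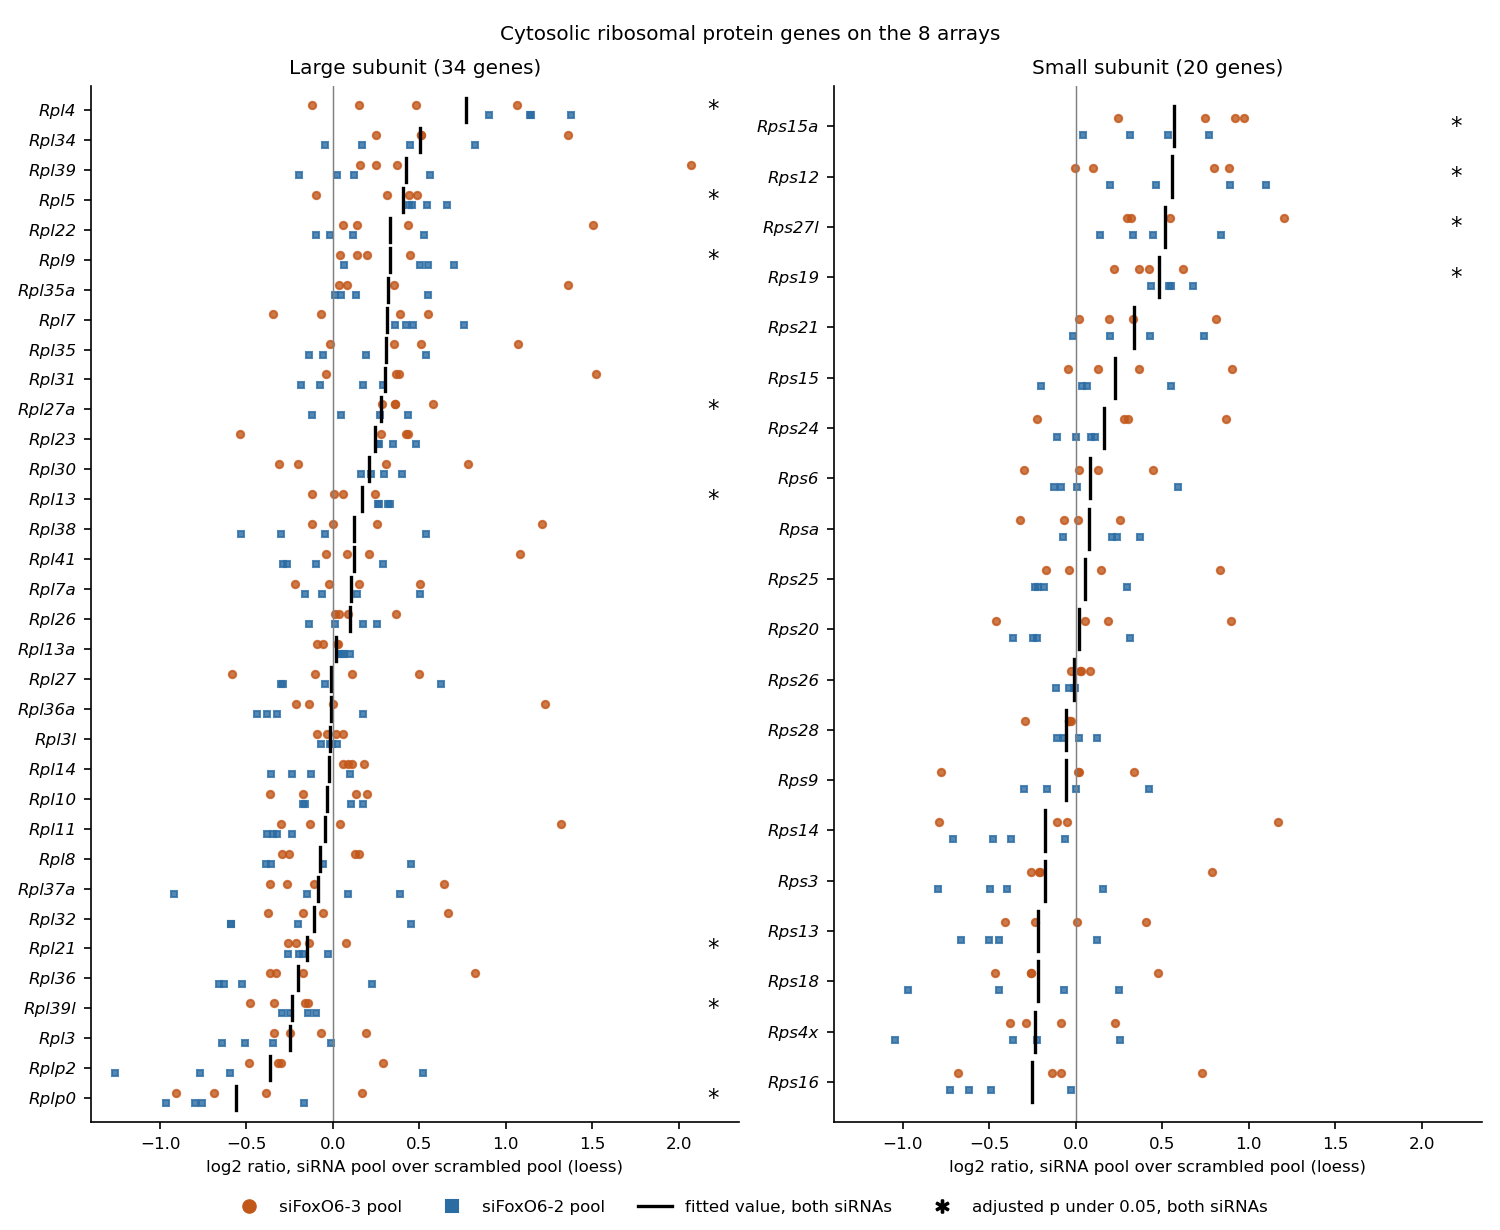
Log2 ratio of each ribosomal protein gene in every pool, large subunit left and small subunit right, with siFoxO6-3 pools as circles and siFoxO6-2 pools as squares. Black bars are fitted values for both siRNAs together and stars mark adjusted p under 0.05; Rpl4 and Rps15a head the panels, Rplp0 and Rps16 close them, and 1 siFoxO6-3 pool lies far to the right in many rows.

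Of the 34 large subunit genes, 5 were called higher and 3 lower. Rpl4, whose long loop reaches into the peptide exit tunnel, stood at 0.48, 1.07, -0.12 and 0.15 in siFoxO6-3 replicates 1 to 4 and at 1.15, 0.90, 1.38 and 1.14 in siFoxO6-2 replicates 1 to 4. All siFoxO6-2 pools but 1 lay above every siFoxO6-3 pool, and 7 of 8 pools lay above the scrambled pool. With both siRNAs Rpl4 rose by 0.77 (SE 0.12, n = 8 arrays, limma adjusted p = 0.010), which is 1.70-fold, and it rests on 1 probe.

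Rpl5, which joins the ribosome with Rpl11 and the 5S rRNA and can bind Mdm2 when free, stood at 0.32, 0.44, -0.10 and 0.49 with siFoxO6-3 and at 0.46, 0.44, 0.66 and 0.54 with siFoxO6-2. It was higher on 7 of 8 arrays and rose by 0.41 (SE 0.06, limma adjusted p = 0.0086). Its partner Rpl11 stood at -0.13, 0.04, -0.30 and 1.32 with siFoxO6-3 and at -0.33, -0.35, -0.24 and -0.38 with siFoxO6-2. Thus 1 pool, siFoxO6-3 replicate 4, lay far above the other 7 for Rpl11, whose fitted value was -0.05 (adjusted p = 0.894), or -0.22 (adjusted p = 0.0296) without that pool. The other Rpl11 probes, dimmer and above the empty spots on 8 of 8 arrays, did not share the sign. On all arrays they stood at 0.33 (limma adjusted p = 0.151) and 0.17 (adjusted p = 0.0816). The remaining large subunit genes called higher, described because they were called and after their values were seen, were Rpl9 (0.33, adjusted p = 0.031, higher on 8 of 8 arrays), Rpl27a (0.28, adjusted p = 0.0292, 7 of 8) and Rpl13 (0.17, adjusted p = 0.0305, 7 of 8). Rpl9 and Rpl13 were above the empty spots on 5 and 6 of the 8 arrays. Rpl9 and Rpl13 lost their calls without any single array except siFoxO6-3 replicate 4 or siFoxO6-2 replicate 3 (0.28 to 0.35 and 0.14 to 0.19). The call of Rpl27a needed replicates 1 (0.30 without it), 2 (0.23) and 4 (0.27) of siFoxO6-3 and replicates 1 (0.23) and 4 (0.29) of siFoxO6-2.

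The lowest members by their brightest probe were those of the ribosomal stalk, the flexible arm that recruits translation factors. Rplp0, the base of the stalk and the brightest member (mean log2 intensity 13.9), stood at -0.91, -0.39, -0.69 and 0.17 with siFoxO6-3 and at -0.76, -0.80, -0.17 and -0.97 with siFoxO6-2. It was lower on 7 of 8 arrays and fell by 0.56 (SE 0.13, limma adjusted p = 0.0324), to 0.677 of the scrambled level. The stalk protein Rplp2 stood at -0.48, -0.30, -0.32 and 0.29 with siFoxO6-3 and at -1.26, -0.77, 0.52 and -0.60 with siFoxO6-2. For both genes the siFoxO6-3 replicate 4 and siFoxO6-2 replicate 3 pools were the highest of their group. Rplp2 had a fitted value of -0.36 (SE 0.19, adjusted p = 0.265), which became -0.58 (adjusted p = 0.0027) without siFoxO6-2 replicate 3. Its other probes, dimmer and above the empty spots on 8 and 7 of 8 arrays, stood at 0.05 and 0.01 and did not share the decrease. The call of Rplp0 was lost without any single array other than those 2 (-0.56 to -0.49, adjusted p from 0.0897 to 0.101), and median centring of each array in place of loess put it at 0.40 (adjusted p = 0.113).

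Below 0 also lay Rpl3, a core protein beside the peptidyl transferase centre, at -0.25 (limma adjusted p = 0.0995). Without siFoxO6-2 replicate 3 it stood at -0.32 (adjusted p = 0.0089). The other Rpl3 probes, dimmer and above the empty spots on 8 of 8 arrays, stood at 0.03 and -0.02 and did not share the decrease. Rpl21 was called lower at -0.15 (adjusted p = 0.0371, lower on 7 of 8 arrays), a small shift that its other probe, at 0.11, did not share; it is described after its value was seen. Its call was lost without any single array other than siFoxO6-3 replicate 4 or siFoxO6-2 replicate 3 (-0.16 to -0.13), and its value was 0.34 (not called) with median centring. Rpl10, a late-joining protein of the large subunit, stood at -0.03 (adjusted p = 0.809), Rpl7 at 0.32 (adjusted p = 0.0910) and Rpl7a at 0.10 (adjusted p = 0.550). Without siFoxO6-3 replicate 4 Rpl7 was called, at 0.41 (adjusted p = 0.0194).

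Of the 20 small subunit genes, 4 were called higher and 0 lower (limma, 5 at an unadjusted p under 0.05). Rps15a, a protein of the body of the subunit, stood at 0.75, 0.24, 0.92 and 0.97 with siFoxO6-3 and at 0.53, 0.04, 0.77 and 0.31 with siFoxO6-2. It was higher on 8 of 8 arrays and rose by 0.57 (SE 0.08, limma adjusted p = 0.0073), which is 1.48-fold. Rps19, a protein of the head that is needed to mature the 18S rRNA and is mutated in Diamond-Blackfan anaemia in humans, stood at 0.22, 0.62, 0.36 and 0.42 with siFoxO6-3 and at 0.44, 0.55, 0.68 and 0.54 with siFoxO6-2. It had the narrowest spread of the called genes relative to its size and rose by 0.48 (SE 0.04, adjusted p = 0.0021) on 8 of 8 arrays.

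Rps12, at the beak of the head, stood at 0.89, 0.80, 0.10 and 0.00 with siFoxO6-3 and at 1.10, 0.46, 0.20 and 0.89 with siFoxO6-2. The pools fell into high and low values within each siRNA, and Rps12 rose by 0.56 (SE 0.14, limma adjusted p = 0.043), higher on 7 of 8 arrays. Rps27l, a paralog of Rps27 and a known p53 target, stood at 0.30, 0.32, 0.54 and 1.21 with siFoxO6-3 and at 0.45, 0.14, 0.84 and 0.33 with siFoxO6-2, above 0 in every pool. It rose by 0.52 (SE 0.12, adjusted p = 0.0314). The call of Rps12 was lost without any single array other than siFoxO6-3 replicate 4 or siFoxO6-2 replicate 3 (0.47 to 0.63), and that of Rps27l on leaving out any of replicates 1 (0.58), 2 (0.57) and 3 (0.53) of siFoxO6-3 or 1 (0.52) and 4 (0.53) of siFoxO6-2. By contrast Rpl4, Rpl5, Rps15a and Rps19 were called with each single array left out in turn.

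Other small subunit genes did not pass the test. Rps16, whose tail reaches toward the decoding site, had a fitted value of -0.26 (adjusted p = 0.299), and X-linked Rps4x had -0.24 (adjusted p = 0.310). Rps3, at the mRNA entry of the head, stood at -0.26, -0.21, -0.21 and 0.78 with siFoxO6-3 and at -0.50, -0.40, 0.16 and -0.80 with siFoxO6-2. Its fitted value was -0.18 (limma adjusted p = 0.502). The second Rps3 probe, dimmer and above the empty spots on 8 of 8 arrays, stood at 0.08 and did not share the sign. Rps6, the phosphorylation target of the S6 kinases, had 0.08 (adjusted p = 0.679), and Rpsa, also known as the laminin receptor, had 0.08 (adjusted p = 0.534).

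The members also varied between pools. After loess the median log2 ratio of the 54 members was -0.03, 0.09, -0.04 and 0.46 in siFoxO6-3 replicates 1 to 4 and -0.05, -0.12, 0.28 and 0.00 in siFoxO6-2 replicates 1 to 4. Thus siFoxO6-3 replicate 4 and siFoxO6-2 replicate 3 stood above the other 6 arrays, on which the median stayed between -0.12 and 0.09. On these 2 arrays 47 and 43 of the 54 members were higher than in the scrambled pool, and 25 and 17 members exceeded 0.50, against 2 to 8 members on each of the others. Loess holds the median of the brightest 10% near 0 on every array (-0.07 to 0.00). With median centring the order was another: the member median was 0.30 on siFoxO6-3 replicate 4, the lowest of the 8 arrays, and 0.36 on siFoxO6-2 replicate 3, against 0.34 to 1.46 on the other 6. The brightest 10% then had medians of -0.32 and -0.04 on these 2 arrays, against 0.44 to 1.48 on the others. The members thus lay above other bright features on these arrays, but not higher against the scrambled pool than on the rest under median centring.

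The excess of the members over the brightest 10% was 0.51 on siFoxO6-3 replicate 4 and 0.35 on siFoxO6-2 replicate 3, and it was -0.10 to 0.10 elsewhere. With median centring it was 0.62 and 0.40 on these arrays and -0.15 to 0.19 elsewhere, and with the authors' deposited log2 values it was 0.43 and 0.34 on these arrays and -0.12 to 0.08 elsewhere. The 2 arrays carry different siRNAs in opposite dye orientations, and they are the ones with the lowest siRNA-channel signal; the part of that signal in the result was not tested. Without them, a choice made after seeing the data, 11 members were called higher, where 14.4% of all features were, and 16 lower, where 10.8% of all features were, with a member median of -0.03. Together these were 50.0% of the members, beside 50.5% of the brightest 10% of features. In these 6 pools Rpl4 (0.77), Rps12 (0.71), Rps15a (0.47) and Rps19 (0.45) were called higher, and Rplp0 (-0.75), Rplp2 (-0.62), Rps16 (-0.46), Rps4x (-0.40) and Rps3 (-0.40) were called lower.

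**Figure D2:**
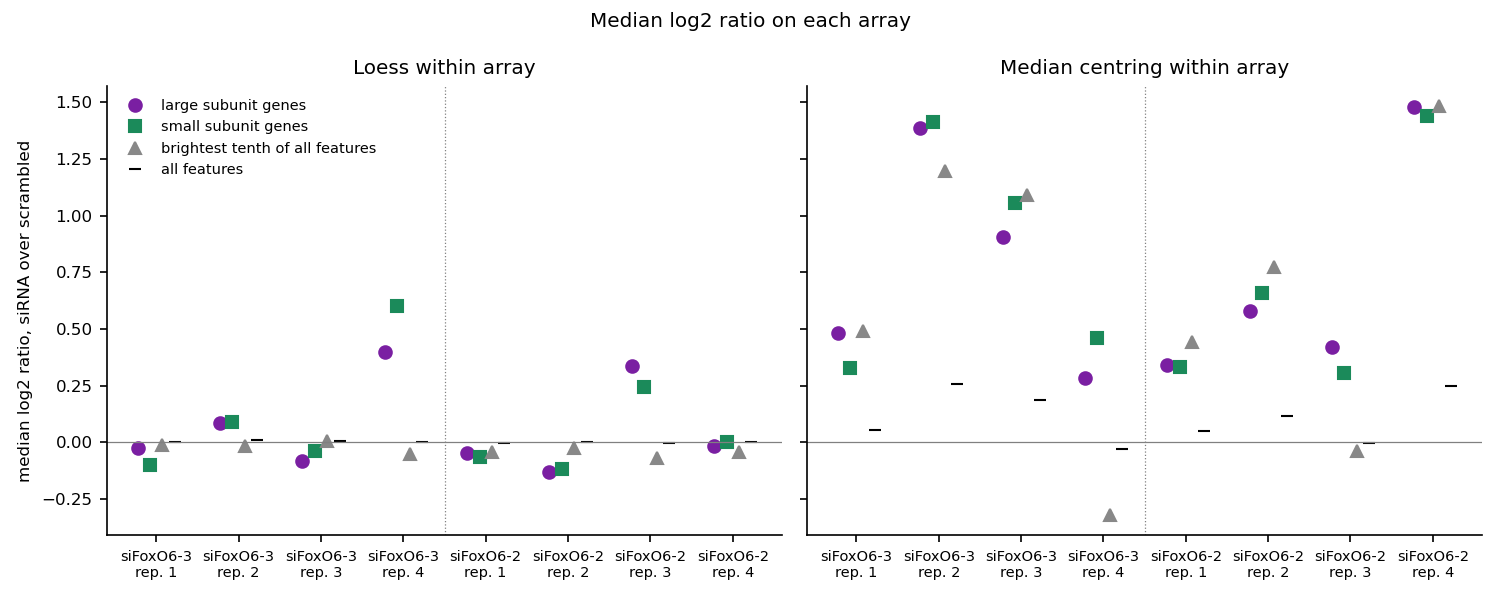
Median log2 ratio (siRNA over scrambled) on each array of large subunit genes, small subunit genes, the brightest 10% of all features and all features, after loess (left) and after median centring (right). After loess both subunits stand well above the brightest 10% on siFoxO6-3 replicate 4 and siFoxO6-2 replicate 3, and the same 2 arrays show the gap after median centring.

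The large and small subunits were then set side by side. With both siRNAs together the median of the fitted log2 ratios was 0.10 over the large subunit genes and 0.04 over the small subunit genes, a difference of 0.07. The large minus small difference of array medians was 0.07, 0.00, -0.04 and -0.20 in siFoxO6-3 replicates 1 to 4 and 0.02, -0.01, 0.09 and -0.02 in siFoxO6-2 replicates 1 to 4. It averaged -0.04 ± 0.12 over the siFoxO6-3 arrays and 0.02 ± 0.05 over the siFoxO6-2 arrays (SD, n = 4 each). In each group the difference lay within 1 SD of 0, and its sign varied between pools. Fitted values ran from -0.56 to 0.77 in the large subunit and from -0.26 to 0.57 in the small subunit.

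For siFoxO6-3 alone, the median of the members was 0.12, and 2 members were called higher, where 0.423% of all features were, and 0 lower, where 0.478% of all features were (0.901% in both directions). They were the small subunit genes Rps15a (0.72 ± 0.33, SD, n = 4, limma adjusted p = 0.0488) and Rps19 (0.41 ± 0.17, adjusted p = 0.0440). Both calls were lost without any single array except siFoxO6-2 replicate 3. The highest fitted values beside Rps15a were those of Rpl39 (0.71 ± 0.91, adjusted p = 0.327), a short protein of the exit tunnel wall, and Rpl34 (0.66, adjusted p = 0.179). Rpl39 stood at 0.25, 0.16, 0.37 and 2.07 in siFoxO6-3 replicates 1 to 4, so that its mean rests on replicate 4. The lowest were Rplp0 (-0.45 ± 0.47, adjusted p = 0.306), Rpl39l (-0.28, adjusted p = 0.0985) and Rplp2 (-0.20 ± 0.34, adjusted p = 0.786).

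For siFoxO6-2 alone, the median of the members was -0.01. Limma called 9.26% of the members, beside 8.79% of all features and 17.1% of the brightest 10%. Of the 2531 brightest features 159 were called higher and 275 lower. By direction, 5 members were called higher, where 4.3% of all features were, and 0 lower, where 4.48% of all features were. These were Rpl4 (1.14 ± 0.19, SD, n = 4, limma adjusted p = 0.0127), Rps19 (0.55 ± 0.10, adjusted p = 0.0062), Rpl5 (0.53 ± 0.10, adjusted p = 0.0159), Rpl9 (0.45, adjusted p = 0.0437) and Rpl13 (0.29 ± 0.04, adjusted p = 0.0219). Rps12 (0.66 ± 0.41, adjusted p = 0.0887) came between these in size and was not called. The lowest were Rplp0 (-0.67 ± 0.35, adjusted p = 0.0691), Rplp2 (-0.53 ± 0.75, adjusted p = 0.295) and Rps16 (-0.47 ± 0.31, adjusted p = 0.214). The count of 5 became 1 without siFoxO6-2 replicate 1 or 4, 3 without siFoxO6-2 replicate 2, 13 without siFoxO6-2 replicate 3 and 10 without siFoxO6-3 replicate 4. Calling over all features changed as well. Without siFoxO6-2 replicate 3 and siFoxO6-3 replicate 4 together, 40.7% of the members were called, beside 19.5% of all features and 41.0% of the brightest 10%.

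The difference between the siRNAs, siFoxO6-3 minus siFoxO6-2, was tested directly. By limma 0 of 54 members were called (3 at an unadjusted p under 0.05), where 0.00395% of all features were. The median difference over the members was 0.20, against 0.00 for all features, and 36 of 54 differences were above 0. Without siFoxO6-3 replicate 4 alone this median was -0.01, with siFoxO6-2 replicate 3 still included. When both of these arrays were left out, the member median was 0.16, and 37 of 54 differences were above 0. Medians were then 0.00 for all features and 0.02 for the 2531 brightest, and 0 members were called. On all arrays the smallest p belonged to Rpl13 (-0.25, SE 0.08, adjusted p = 0.482), followed by Rpl4 (-0.75, SE 0.25, adjusted p = 0.526) and Rpl14 (0.27, SE 0.09, adjusted p = 0.571). Rpl4 averaged 0.39 ± 0.51 with siFoxO6-3 and 1.14 ± 0.19 with siFoxO6-2 (SD, n = 4 each). Rpl27a (0.24, SE 0.12, adjusted p = 0.779) and Rpl5 (-0.24, SE 0.13, adjusted p = 0.780) came next. None of these differences passed the test, which does not show that the siRNAs act alike.

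Several probes per gene allowed an internal check, since 23 of the 54 genes had 2 or more probes above the empty spots on all 8 arrays. In 15 of these 23 the brightest and second-brightest probes had the same sign. Tested probe by probe, 15 of the 96 probes were called higher, where 6.12% of all 41174 probes were, and 4 lower, where 5.73% of all probes were. In 2 genes more than 1 probe was called, and 0 genes had probes called in opposite directions. Rps15a had 3 bright probes at 0.57, 0.78 and 0.61 (limma adjusted p = 0.0073, 0.0070 and 0.0054), all higher. Rplp0 had its 2 brightest probes at -0.56 and -0.57 (adjusted p = 0.0330 and 0.0167), with the third at -0.32 (adjusted p = 0.0811).

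For other called genes the probes did not move together. The second Rps19 probe, nearly as bright as the first (mean log2 intensity 9.36 against 9.40), stood at 0.09 (limma adjusted p = 0.590) where the first stood at 0.48. The second Rpl5 probe stood at -0.22 (adjusted p = 0.378), so that the mean of both gave 0.09 (adjusted p = 0.353). In 4 genes a dimmer probe was called where the brightest was not, and these are named after their values were seen: Rpl7 (0.76, adjusted p = 0.0064), Rps21 (0.57, adjusted p = 0.0086), Rpl23 (0.48, adjusted p = 0.0203) and Rps25 (0.37, adjusted p = 0.0104). The probe sequences were not used here, and 40 of the 54 members have annotated pseudogenes named after them (213 in all), whose transcripts may share a probe.

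**Figure D3:**
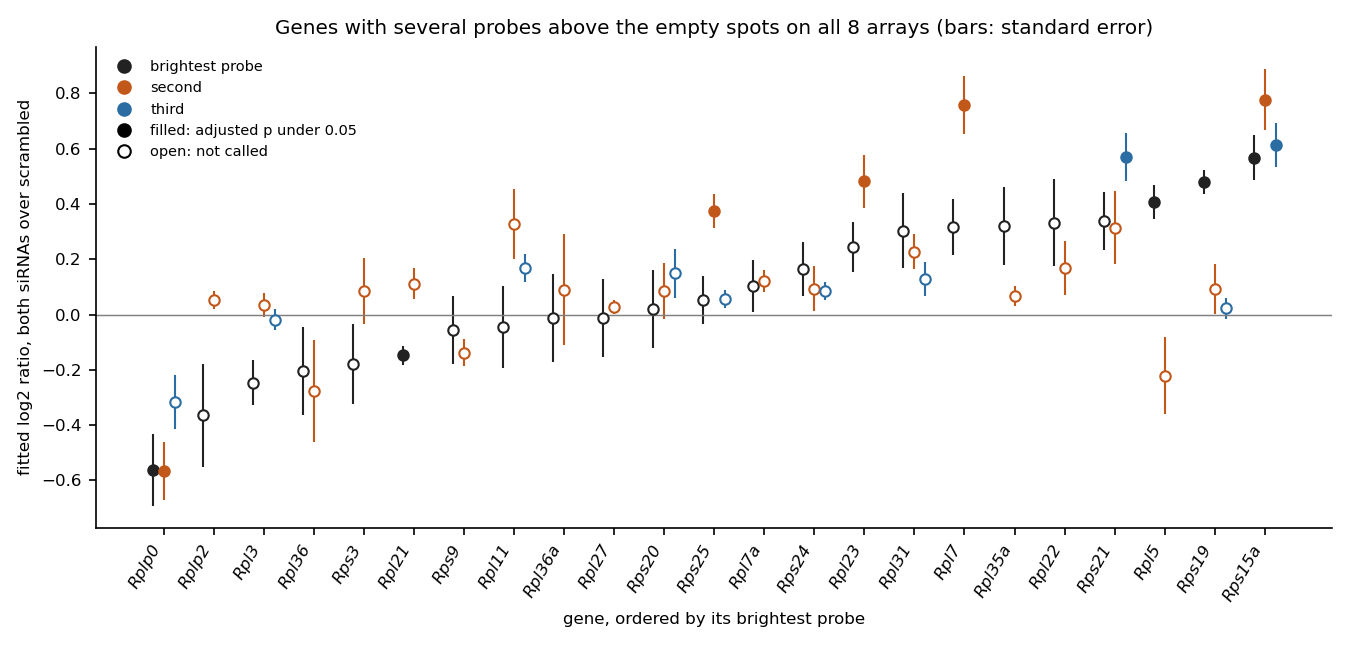
Fitted log2 ratio with both siRNAs (bars, standard error; n = 8 arrays) of every probe that exceeded the empty spots on each of the 8 arrays, for the 23 genes with several such probes, coloured by brightness rank and filled where called. Rps15a has 3 filled probes near 0.6 and Rplp0 has 2 near -0.57, while the probes of Rps19 and Rpl5 lie apart.

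Paralogs within the family were compared where both had a probe. Rpl39l, a paralog of Rpl39 known from male germ cells, stood at -0.48, -0.34, -0.16 and -0.14 with siFoxO6-3 and at -0.30, -0.25, -0.14 and -0.10 with siFoxO6-2. It was below the scrambled pool on 8 of 8 arrays and fell by 0.24 (SE 0.05, limma adjusted p = 0.0170), while its probe was above the empty spots in both channels on 6 of 8 arrays. Rpl39, far brighter at a mean log2 intensity of 12.2 against 6.23, had a fitted value of 0.42 (SE 0.22, adjusted p = 0.263). The call of Rpl39l was lost on leaving out replicate 2 of siFoxO6-3 (-0.22) or replicates 1 (-0.23) or 2 (-0.22) of siFoxO6-2, with median centring (-0.36, adjusted p = 0.0601) and as the mean of its probes (-0.11). Rpl3l, a paralog of Rpl3 known from heart and skeletal muscle, lay near the empty spots, above them on 3 of 8 arrays, and had a fitted value of -0.01.

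Ribosomal protein spots were among the brightest on the arrays: the median member lay at the 98.4th percentile of mean intensity, and 8 of 54 members lay below the median intensity of all features. Loess removes any ratio shared by most spots of 1 brightness, so a shift common to bright genes cannot be seen in the values above. Median centring keeps such a shift, and it put the member median at 0.75, against 0.11 for all features and 0.65 for the brightest 10%. Under it 21 members (38.9%) were called higher, where 1.81% of all features and 6.8% of the brightest 10% were, and 0 lower. By limma 47 of 54 members had an unadjusted p under 0.05, as had 12739 of all 25310 features and 1627 of the 2531 brightest. Across the 54 members the ratio and the mean intensity had Pearson's r of -0.19 (Spearman's rho -0.23) with loess and 0.66 (rho 0.46) with median centring, a description over genes that share the same 8 arrays.

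With median centring Rps15a (1.37) had the highest value of the members, and Rpl39 (1.23), Rpl5 (1.20), Rpl34 (1.20) and Rpl4 (1.17) were among the 8 highest, while Rplp0 (0.40) and Rplp2 (0.57) lay below the median of the brightest 10% under either normalization. The direction of Rplp0, Rplp2, Rps16, Rpl3, Rps4x, Rpl11, Rps3 and Rpl21 against the scrambled pool was below 0 with loess and above 0 with median centring, as were 20 of the 24 members below 0 with loess.

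**Figure D4:**
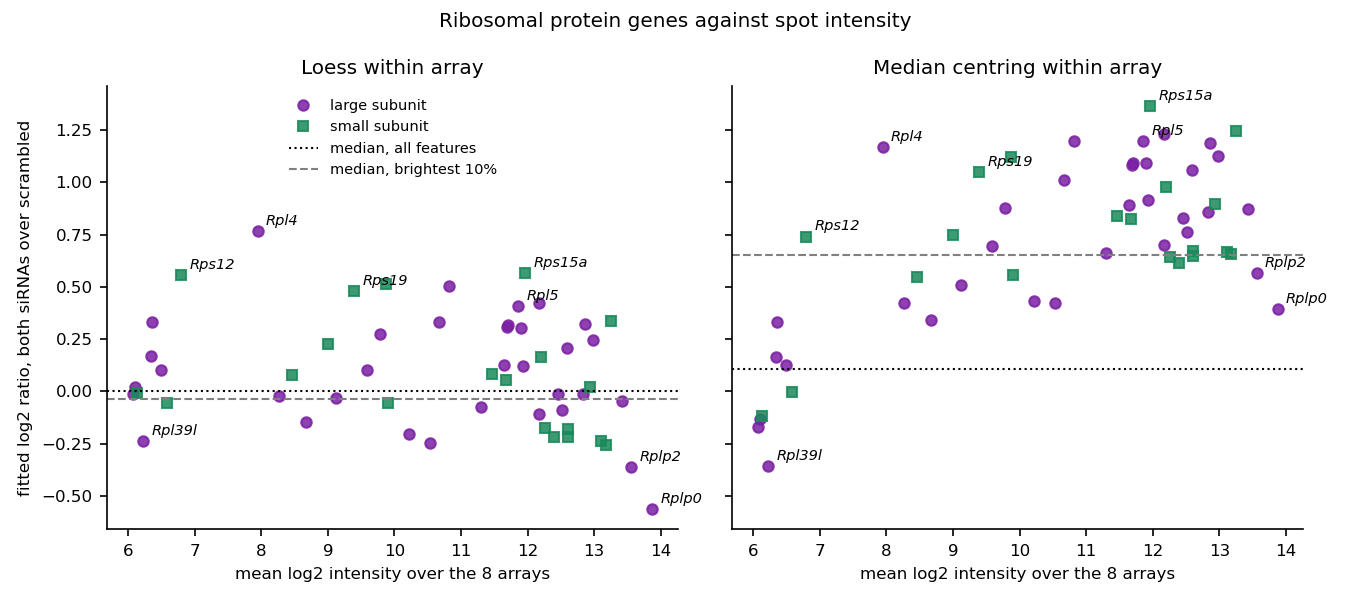
Fitted log2 ratio with both siRNAs (n = 8 arrays) of each ribosomal protein gene against its mean log2 intensity, after loess (left) and median centring (right), with dotted and dashed lines at the medians of all features and of the brightest 10%. With loess the bright members scatter around 0, and with median centring most of them lie above the dashed line, which is then at 0.65. Rplp0 and Rplp2 lie below the dashed line in both panels.

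Other genes of protein synthesis were examined as lists. Of 75 mitochondrial ribosomal protein genes, whose products make the separate ribosome of that organelle, 13 were called higher and 1 lower, with a median of 0.09 (limma, beside 6.72% and 6.59% of all features). Among them Mrpl39 (0.38, adjusted p = 0.0030) and Mrps14 (0.46, adjusted p = 0.0057) rose. Of 3 large subunit variants outside the naming rule 1 was called higher, Rpl36al (0.33, adjusted p = 0.0299), and Rpl22l1 had 0.31 (adjusted p = 0.128); the ubiquitin-like fusion gene Fau, which encodes a small subunit protein, had -0.12 (adjusted p = 0.634).

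Of 84 ribosome biogenesis factors, 6 were called higher and 13 lower (median 0.00); Sbds, which releases eIF6 from new large subunits, rose by 0.78 (limma adjusted p = 0.0023), and Utp20 of the small subunit processome fell by 0.48 (adjusted p = 0.0046). Of 41 initiation factors, 5 were called higher and 9 lower (median -0.05), with the cap-binding protein Eif4e2 at 0.68 (adjusted p = 0.0037) and the eIF3 subunit Eif3d at -0.55 (adjusted p = 0.0046). Of 19 aminoacyl-tRNA synthetases, 2 were called higher and 8 lower (median -0.16), led by Tars (-0.28, adjusted p = 0.0091) and Iars (-0.44, adjusted p = 0.0102). Of 18 mRNAs outside the family that carry a 5′ TOP tract, 1 was called higher and 4 lower (median -0.08), led by Pabpc1 (-0.47, adjusted p = 0.0046) and Eef1d (-0.41, adjusted p = 0.0113). Of these 18, 15 also belong to another of the lists, among them 3 of the 4 called lower (Pabpc1, Eef1d and Eef2) and the 1 called higher, Btf3. With median centring these list medians were 0.34, 0.46, 0.37 and 0.75 and 0 members of the 4 lists were called lower; Utp20 (-0.05) and Eif3d (-0.03) stayed below 0 and Tars (0.39), Iars (0.16), Pabpc1 (0.34) and Eef1d (0.18) did not.

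The elongation factor list of 11 genes also holds genes that are not elongation factors proper, among them Eef1e1, Eef2k and Tpt1. Of the 11, 1 was called higher, Eef1e1 (0.28, limma adjusted p = 0.0068), and 2 lower, Eef1d and Eef2 (median -0.01). Of 20 genes of RNA polymerase I and rDNA transcription, 3 were called higher, among them Polr2k (0.59, adjusted p = 0.0131), and 1 lower, Twistnb (-0.39, adjusted p = 0.0095), with a median of 0.03. Of 21 regulators of TOP mRNAs and mTORC1, 2 were called higher and 2 lower (median -0.10); the scaffold Rptor stood at -0.33 (adjusted p = 0.0061) and Tsc2, which restrains the kinase, at -0.26 (adjusted p = 0.0127). Of 22 nascent chain and ribosome-associated factors, 2 were called higher and 1 lower (median 0.02), with Srp19 at 0.24 (adjusted p = 0.0233) and Btf3 at 0.25 (adjusted p = 0.0329). Of 6 measured genes that link free ribosomal proteins to p53, limma called 0 with both siRNAs together, while 4 had an unadjusted p under 0.05; Ccng1 had 0.53 (adjusted p = 0.0544) and Mdm2 -0.27 (adjusted p = 0.0811). With siFoxO6-2 alone 2 of the 6 were called higher and with siFoxO6-3 alone 0 (limma, 1 with an unadjusted p under 0.05). These were Ccng1 (0.93, adjusted p = 0.0373, against 0.14 with siFoxO6-3) and, described after its values were seen, Cdkn1a (0.48, adjusted p = 0.0157). Cdkn1a stood at -0.19, -0.17, -0.35 and -0.01 in siFoxO6-3 replicates 1 to 4 and at 0.35, 0.31, 0.71 and 0.56 in siFoxO6-2 replicates 1 to 4, below 0 in every siFoxO6-3 pool and above 0 in every siFoxO6-2 pool. Its difference between the siRNAs was -0.66 (SE 0.11, limma adjusted p = 0.260), and 0 of the 6 differences were called, where 2 had an unadjusted p under 0.05. With median centring Rptor stood at 0.19, Tsc2 at 0.26 and Twistnb at -0.13.

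**Figure D5:**
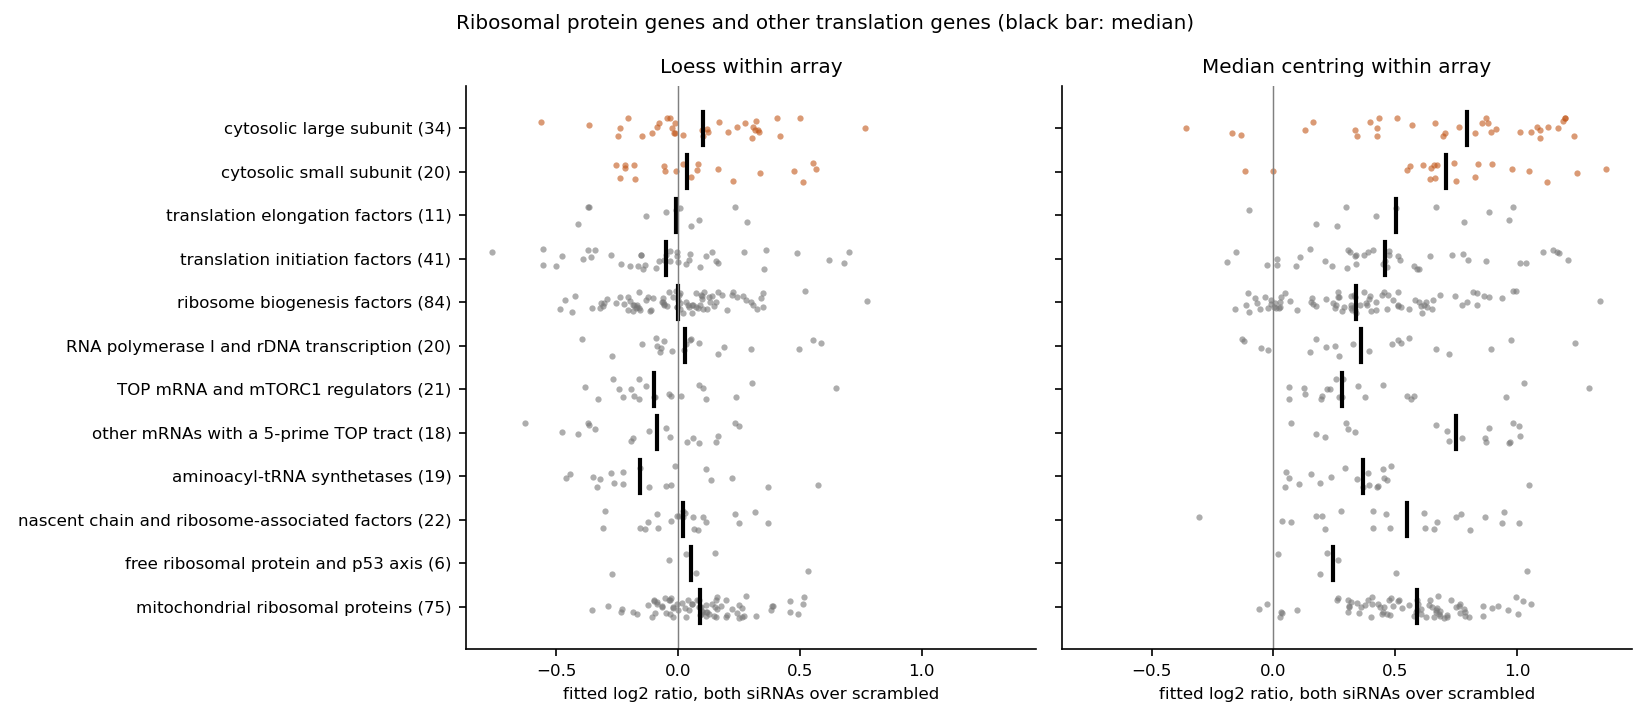
Fitted log2 ratio with both siRNAs (n = 8 arrays) of cytosolic ribosomal protein genes (orange) and of genes of other translation lists (grey), after loess (left) and median centring (right); each point is a gene, black bars are medians and the number of genes is in brackets. Lists of under 6 genes are left out; the medians shown lie between -0.16 and 0.10 with loess and all lie above 0 with median centring.

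Promoter windows from RefSeq (GRCm38.p6, 250 bases before to 50 after the annotated start) were at hand for 45 of the 54 members, and 4 are shown from 100 bases before to 20 after the start, for the genes that headed or closed the large subunit, for Rps15a and for Rpl5. Capitals mark the ETS core (CGGAAG or its reverse complement) and the pyrimidine-rich stretch CTCTTT on the sense strand, which was searched over the whole window and not only at the start of the mRNA. They lie at chr5:115559367-115559486 (+) for Rplp0, chr7:118116128-118116247 (-) for Rps15a, chr5:107900428-107900547 (+) for Rpl5 and chr9:64173287-64173406 (+) for Rpl4:
Rplp0: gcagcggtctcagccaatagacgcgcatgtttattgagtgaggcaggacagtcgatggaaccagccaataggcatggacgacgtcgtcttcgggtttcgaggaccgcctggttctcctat
Rps15a: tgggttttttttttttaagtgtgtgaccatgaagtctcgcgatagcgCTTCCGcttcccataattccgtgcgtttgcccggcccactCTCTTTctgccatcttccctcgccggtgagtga
Rpl5: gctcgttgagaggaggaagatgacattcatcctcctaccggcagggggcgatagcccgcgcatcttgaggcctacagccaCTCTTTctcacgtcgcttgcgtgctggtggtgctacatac
Rpl4: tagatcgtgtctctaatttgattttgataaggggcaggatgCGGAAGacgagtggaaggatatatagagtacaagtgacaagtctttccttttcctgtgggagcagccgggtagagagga

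The motifs differ between the 4 windows shown: Rplp0 holds neither motif, Rps15a holds both, Rpl5 holds CTCTTT and Rpl4 the ETS core. In Rps15a and Rpl5 the CTCTTT lies before the annotated start, so it is not shown to be the 5′ TOP tract of the mRNA. Which of these genes carry a 5′ TOP tract was not examined. Over the full windows, CGGAAG on either strand was found in 31 of 45 members (68.9%), against 18.8% of all 27025 genes with a window, and CTCTTT on the sense strand in 16 (35.6%), against 13.7%. AAGATGGC, a YY1-type motif searched on both strands, was found in 4 members (8.89%, against 3.19%), among them Rps15a, and TATAAA on the sense strand in 4 (8.89%, against 9.77%), among them Rplp0. GTAAACA, the FoxO motif, searched on both strands, was found in 1 member, Rpl41 (2.22%, against 4.05%), whose fitted log2 ratio was 0.12 (limma adjusted p = 0.621). None of these motifs contains another, and a match in a window is not a site of binding.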

How the data were processed

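Cells sorted from mouse embryonic cortex were measured on 8 two-colour arrays, each with 1 siRNA pool against 1 scrambled pool. The siRNA pool was in Cy5 on replicates 2 and 4 and in Cy3 on replicates 1 and 3 of each siRNA. The deposited scanner files give spot intensity and local background intensity per channel, without correction, per the file headers. A deposited log2 table gives siRNA over reference; how the authors normalized it and with which program is not given in the sources used here.

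Mean spot intensities were corrected by normexp (offset 50) and normalized by loess within each array, control spots at weight 0. The 41174 gene probes (34186 with 1 symbol, 0 with several, 6988 with none) were reduced to 25310 features, keeping the brightest probe per symbol. Values of single pools are these ratios, without the dye term. limma 3.58.1 in R 4.3.3 (lmFit, eBayes) was fitted on all features with 1 coefficient per siRNA and a dye term per feature, with 5 residual degrees of freedom; tests were two-sided with Benjamini-Hochberg adjustment. A probe was above the empty spots when its signal passed that of 97.5% of the 959 empty control spots, channel by channel; the number of arrays limits precision. The procedure was tested on simulated data.

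Named members were the 6 highest and 6 lowest with both siRNAs together, the 3 highest and 3 lowest with each siRNA, the 5 smallest p of the difference, and fixed members: the stalk proteins, Rpsa, Rpl5, Rpl11, Rps6, Rps3 and paralog pairs. Of each other list the 2 smallest p were named. The members and the 12 lists of translation genes and 7 marker lists were chosen with earlier results of these data known. Alternatives changed the background correction, normalization, dim or saturated spots, array weights and dye term, or used the mean of probes, the deposited values, a block by replicate number, a reference pool that varies, or fewer arrays. Same-numbered pools did not all deviate together. Correlations across features were 0.36, -0.17, -0.32 and -0.54 after the dye term for replicates 1 to 4. As deviations from the mean of the siRNA they were 0.53, 0.22, -0.10 and -0.28, against -0.47 to 0.49 for pools of different number. The numbers were therefore not taken to pair the pools, though a pairing of some pools was not tested. Symbols and promoter windows were matched to RefSeq GRCm38.p6, where all 54 members had a record; the build behind the probe annotation is not given in the sources used here.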

Additional observations from a re-analysis of the deposited data

Results flagged for a closer look

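Among 64 groups of 4 pools (the members described, the family medians and Cdkn1a, in each siRNA), 2 held a pool whose gap to the nearest of the others exceeded 0.829 of the range of the group; chance alone flags about 1 group in 20. Both were siFoxO6-3 replicate 4, the array with the lowest siRNA-channel signal. The log2 ratio of Rpl39 was 2.07 in that pool (gap over range 0.887), with the other siFoxO6-3 pools between 0.16 and 0.37. The log2 ratio of Rps3 was 0.785 in that pool (0.952), with the other siFoxO6-3 pools between -0.26 and -0.21. Outside the family, every siFoxO6-3 pool lay below 0 and every siFoxO6-2 pool above 0 for Cdkn1a, the p53 target that encodes p21. The difference, siFoxO6-3 minus siFoxO6-2, was -0.662 and did not pass the test over all features (limma adjusted p = 0.260).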

How the results depend on the processing

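With 12 members called for both siRNAs together, the counts were 21 with median centring, 19 of 96 with every probe tested by itself and 27 without both arrays of lowest siRNA signal (added after seeing the data); with siFoxO6-3 (2 called) they were 1 without background correction, 1 without the dye term, 1 with the mean of all probes, 0 with median centring and 5 without both arrays; with siFoxO6-2 (5 called) they were 0 with median centring, 11 probe by probe, 18 with array weights and 22 without both arrays. With a reference assumed to vary as much as the siRNA pools do, limma called 0 members in any comparison. An unadjusted p under 0.05 was held by 1 of 54 members with both siRNAs, 2 with siFoxO6-3 and 4 with siFoxO6-2. Against the scrambled pool 0 of all 25310 features were called in that setting. Of these features 635, 396 and 1124 had an unadjusted p under 0.05 by limma, in the same order. A replicate block, though the numbers were not taken to pair the pools, left 8 members called with both siRNAs, 0 with siFoxO6-3 and 5 with siFoxO6-2. Leaving out single arrays gave 4 to 15 called with both siRNAs, 0 to 2 with siFoxO6-3 and 1 to 13 with siFoxO6-2. Over all features 13.3%, 0.901% and 8.79% were called in these comparisons on all 8 arrays. Without both arrays of lowest siRNA signal these shares were 25.2%, 6.43% and 19.5%. Shares with array weights or without single arrays are not given here. Median centring moved the member medians to 0.746, 0.784 (siFoxO6-3) and 0.690 (siFoxO6-2), and it turned Rplp0 to 0.395, Rplp2 to 0.567, Rps16 to 0.657, Rpl3 to 0.425, Rps4x to 0.665, Rpl11 to 0.872, Rps3 to 0.672 and Rpl21 to 0.341. The causes were not tested. The large minus small difference (0.066) ran from -0.022 to 0.104 over all settings, and 0 members were called for the difference between siRNAs in each of them by limma. Of 12 calls with both siRNAs, those of Rps19, Rps15a and Rpl4 held in 18 of 19 settings each. Signal over background limits Rpl39l, Rpl3l, Rps26, Rpl13a, Rpl13 and Rpl9, which were not above the empty spots on all 8 arrays.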
